A study of Mus musculus with 18 samples.

Results

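The Nr4a genes encode a small family of orphan nuclear receptors, and this account covers its 3 members, Nr4a1, Nr4a2 and Nr4a3. They were matched by Entrez identifier (15370, 18227 and 18124) to mouse symbols in both deposited tables, which hold 22078 genes, and all 3 members were found and tested in every comparison. The samples were cultured cortical astrocytes from mouse brain, sequenced as 18 poly-A libraries in 6 groups of 3. At 90 min the groups were cells given a plasmid for hM4Di, hM3Dq or rM3Ds, or for EGFP as the control, each with deschloroclozapine (DCZ) at 8 µM for 90 min, 7 days after transfection. At 3 days the groups were hM3Dq and an mCherry control, given the same 90 min of DCZ and then kept in medium without it. The receptors are designer receptors (DREADDs), muscarinic receptors changed to respond to a synthetic ligand. hM4Di couples to Gi proteins, which lower cyclic AMP. hM3Dq couples to Gq, which releases calcium from internal stores, and rM3Ds couples to Gs, which raises cyclic AMP.

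All groups, both controls included, received the transfection reagent and DCZ, and no group here carried a receptor without the ligand, so a difference compares a receptor with a fluorescent protein in ligand-treated cells. The control protein differed between the times. The share of cells that took up the plasmid and the promoter that drives it are not given in the sources used here, so cells with and without a receptor are averaged within each library. In such bulk samples a smaller share of responding cells and less RNA per responding cell cannot be told apart. The labels give the libraries of a group the numbers 1 to 3 without saying whether they came from different cultures, so part of the spread behind each p-value may be technical.

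NR4A receptors are transcription factors with the DNA-binding and ligand-binding domains of nuclear receptors, but the ligand pocket is filled by bulky side chains, so their activity is set mostly by how much protein is made. Their genes are immediate-early genes: they are transcribed within minutes of a stimulus from factors already present in the cell, among them CREB, which cyclic AMP and calcium signals activate, and MEF2, which calcium signals activate. The proteins bind the NBRE element as monomers, and Nr4a1 and Nr4a2 also bind DNA together with the retinoid X receptors. In brain, Nr4a1 is known as an activity-induced gene of neurons, Nr4a2 as a factor needed for midbrain dopamine neurons and as a brake on inflammatory genes in astrocytes and microglia, and Nr4a3 as an activity-induced gene of less studied function.

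The 250 bases upstream of each RefSeq gene start are shown because members were called higher with the Gq and Gs receptors. With Gq against EGFP 3 of the 3 were called, as 0.758% of all genes tested were. With Gs against EGFP 1 was, as 0.0147% of all genes were. These bases also hold letters that CREB is known to bind, and their part in the calls was not tested. Of the 3 members, 3 had 1 window each in the RefSeq table of build GRCm38.p6. The Nr4a1 window is chr15:101266596-101266845 on the plus strand, the Nr4a2 window is chr2:57124004-57124253 on the minus strand and the Nr4a3 window is chr4:48045055-48045304 on the plus strand. Each is written along the direction of its gene, and capitals mark the CRE half-site, TGACG or its reverse complement.
Nr4a1: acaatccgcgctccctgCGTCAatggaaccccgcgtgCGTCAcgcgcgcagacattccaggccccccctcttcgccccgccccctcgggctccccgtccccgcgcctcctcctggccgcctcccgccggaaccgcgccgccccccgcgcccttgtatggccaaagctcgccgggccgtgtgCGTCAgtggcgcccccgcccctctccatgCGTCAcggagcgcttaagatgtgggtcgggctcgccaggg
Nr4a2: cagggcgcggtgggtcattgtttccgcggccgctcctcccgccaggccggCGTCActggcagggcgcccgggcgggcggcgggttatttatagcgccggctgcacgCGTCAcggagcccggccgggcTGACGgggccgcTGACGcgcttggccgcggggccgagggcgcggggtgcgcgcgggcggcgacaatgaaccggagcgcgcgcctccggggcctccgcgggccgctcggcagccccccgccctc
Nr4a3: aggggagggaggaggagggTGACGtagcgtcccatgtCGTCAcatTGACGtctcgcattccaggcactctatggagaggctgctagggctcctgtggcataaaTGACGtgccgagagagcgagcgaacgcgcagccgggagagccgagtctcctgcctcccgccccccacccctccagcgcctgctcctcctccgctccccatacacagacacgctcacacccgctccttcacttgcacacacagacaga

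Each of the 3 windows held 4 CRE half-sites, counting both strands. Of all 32851 windows in the table, 17.8% held at least 1 and 45, or 0.137%, held at least 4, with 5 the most in any window. In Nr4a1 all 4 read on the minus strand of the gene, starting 233, 213, 69 and 40 bases before the gene start. In Nr4a2 they began 200 and 144 bases before the start on the minus strand and 123 and 111 bases before it on the plus strand. In Nr4a3 they began 231, 205 and 147 bases before the start on the plus strand and 213 bases before it on the minus strand. The letters of the full CRE, TGACGTCA, which contains a half-site on each strand, were in none of the members' windows and in 1.55% of all windows. Those of the NBRE, AAAGGTCA, to which the NR4A proteins themselves bind, were in none of the members' windows and in 1.34% of all. An AP-1 site, TGANTCA, was in none and in 6.75% of all, and a CArG box, the site of serum response factor, was in none and in 1.47% of all. A MEF2 box was in the Nr4a2 window, starting 167 bases before the start, and in 2.92% of all windows; it overlaps the letters TATAAA on the other strand, which 12.4% of all windows hold. The members' windows were richer in G and C than the median window, at 74.4% for Nr4a1, 80.0% for Nr4a2 and 63.6% for Nr4a3 against 52.4%. These matches describe the letters of the windows and were chosen after the windows had been seen.

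**Figure D1:**
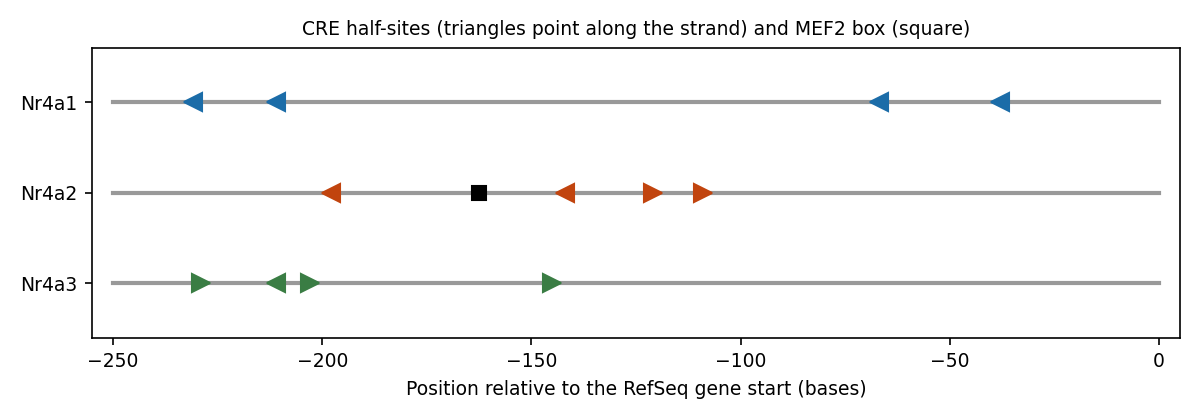
Map of the CRE half-sites (TGACG on either strand) in the 250 bases before the RefSeq gene start of each Nr4a gene; the x axis is the position in bases relative to that start, and each triangle points along the strand of its match. Each member has 4 half-sites: those of Nr4a3 lie 147 or more bases before the start, and 2 of those of Nr4a1 lie 69 and 40 bases before it.

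Library totals were 16.1 to 25.2 M counts, and a floor of 3 counts corresponded to 0.119 to 0.187 counts per M counts of the library (CPM). EGFP library 1 and rM3Ds libraries 2 and 3 stood apart on the first principal component at 90 min, which held 49.5% of the variance. Their cell cycle genes lay at a median of 2.26, 1.49 and 1.46 on the log2 scale relative to the mean of the 12 libraries, against -1.15 to 0.70 in the other 9. At 3 days mCherry library 3 stood apart on a component with 53.7% of the variance. All 9 astrocyte markers, Aqp4, Slc1a3, Aldh1l1, Sox9 and Aldoc among them, were detected in all 18 libraries. The 9 astrocyte markers summed to 377 CPM in EGFP library 1 and to 787 and 861 CPM in EGFP libraries 2 and 3. In the receptor groups at 90 min they summed to 732 to 901 CPM. The part of this difference in the Nr4a levels was not tested. Gfap, the classic astrocyte filament, was low, at 1.94 to 22.7 CPM at 90 min and 1.70 to 3.81 CPM at 3 days. S100b had medians of 2.93 CPM at 90 min, with a maximum of 96.2 CPM, and 1.40 CPM at 3 days. Of the 6 microglia markers, P2ry12 was at 0 in 10 of 12 libraries at 90 min and in 6 of 6 at 3 days, and Cx3cr1 in 8 and 6, while Tmem119 was detected in all 18, at 1.42 to 8.85 CPM and 4.25 to 9.10 CPM, and Csf1r and Aif1 in all 12 at 90 min, at no more than 0.828 CPM. The neuronal Snap25 did not exceed 0.330 CPM. The 6 neuron markers, mostly Map2, summed to 204 to 215 CPM in the 3 libraries that stood apart at 90 min and 191 CPM in hM4Di library 1, against 103 to 145 CPM in the other 8, with Stmn2 reaching 50.9 CPM; their part in the Nr4a levels was not tested. Of the 6 fibroblast and mural markers Col1a1 was high, at 663 to 1906 CPM at 90 min and 805 to 1368 CPM at 3 days. At 90 min Pdgfrb was at 282 to 527 CPM, Dcn at 104 to 467 CPM and Acta2 at 81.4 to 432 CPM. Lum did not exceed 3.34 CPM there, nor Rgs5 0.346 CPM. The 6 summed to 1384 to 2636 CPM at 90 min, above the astrocyte sum.

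The receptor genes themselves come from human and rat sequences and were not checked in the mouse tables, so the groups rest on the labels. The 3 Nr4a genes shared 1 order of group means: hM3Dq at 90 min was highest, followed by rM3Ds, hM4Di, EGFP, hM3Dq at 3 days and mCherry at 3 days. Neighbouring groups in that order did not overlap, with the exception of hM4Di and EGFP, which overlapped in Nr4a1 and Nr4a3. Of all genes tested, 8.11% did not overlap in that direction for hM3Dq against rM3Ds and 5.79% for rM3Ds against hM4Di. The share was 4.37% for hM4Di against EGFP and 9.32% for hM3Dq against mCherry at 3 days. No share was counted for EGFP at 90 min against hM3Dq at 3 days. The levels at the 2 times come from separate tables, so the step between the times also holds any difference between those runs and cultures.

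**Figure D2:**
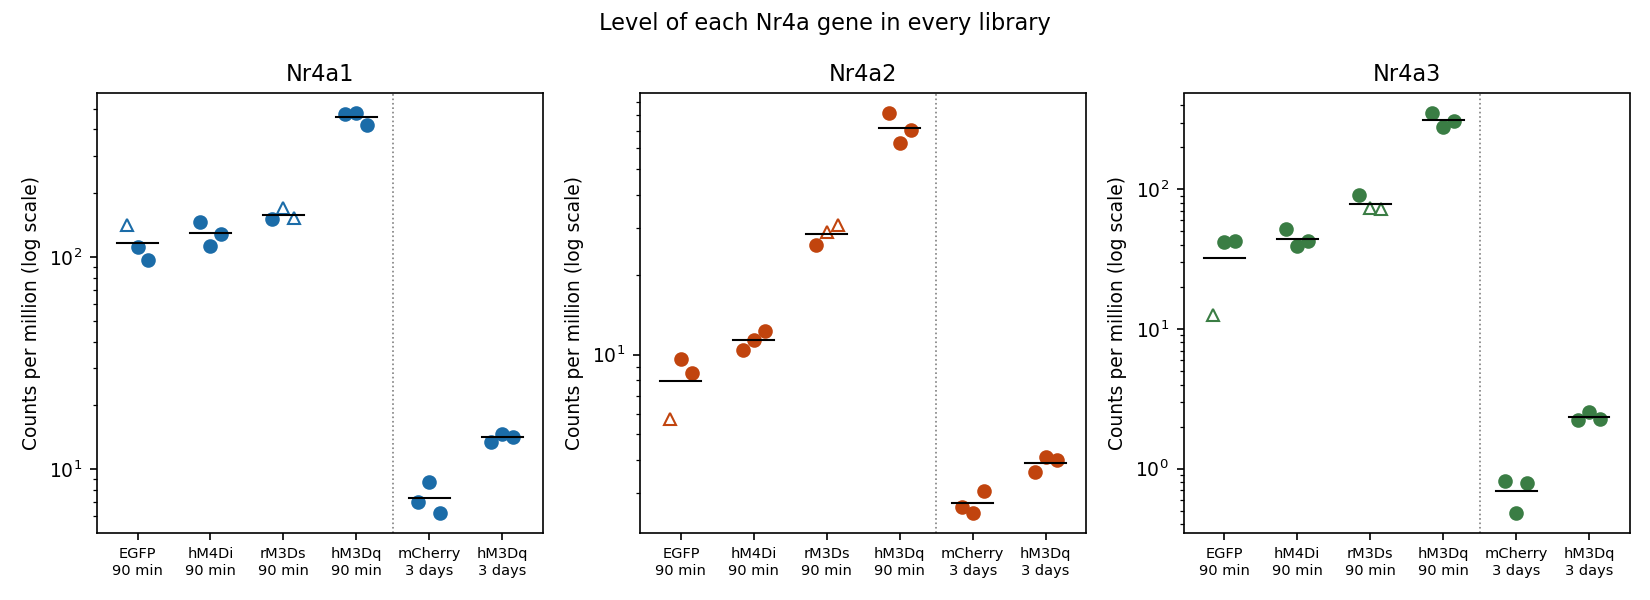
Level of Nr4a1, Nr4a2 and Nr4a3 in every library of the 6 groups, in CPM on a log axis; points are libraries, bars are group means, and open triangles mark the 3 libraries that stood apart at 90 min. All 3 genes are highest in hM3Dq at 90 min, and in Nr4a3 EGFP library 1 lies at 12.6 CPM, below the other EGFP libraries at 41.6 and 42.7 CPM.

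After 90 min the Gq-coupled receptor hM3Dq was accompanied by higher levels of all 3 genes. Nr4a1 measured 142, 112 and 96.8 CPM in the EGFP libraries and 473, 475 and 418 CPM in the hM3Dq libraries. The lowest hM3Dq library lay far above the highest control. Nr4a1 was 3.99-fold higher, at a log2 fold change of 2.00 ± 0.15 (SE, 95% interval 1.66 to 2.33, edgeR adjusted p = 6.09e-05). Nr4a2 measured 5.71, 9.64 and 8.57 CPM in EGFP and 81.2, 62.9 and 70.1 CPM in hM3Dq. It was the scarcest member in both groups and again showed no overlap. Its log2 fold change was 3.21 ± 0.18 (2.82 to 3.59), or 9.23-fold, with an edgeR adjusted p of 5.32e-06. Nr4a3 measured 12.6, 41.6 and 42.7 CPM in EGFP and 349, 279 and 310 CPM in hM3Dq. Its controls were uneven: EGFP library 1, which stood apart, lay well below the other pair. The log2 fold change of Nr4a3 was 3.32 ± 0.37 (2.51 to 4.13), or 9.99-fold, with an edgeR adjusted p of 0.00143. Without EGFP library 1 it was 2.94 with an adjusted p of 2.02e-05. The Nr4a3 call was lost in 1 of 15 alternative fits. That fit held only these 2 groups, with the replicate number as a block (edgeR adjusted p = 0.143).

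In this comparison 3 of 3 members were called higher, at an edgeR adjusted p below 0.05, where 0.758% of the 13584 genes tested were. Ranked by p among all genes, Nr4a2 stood at 3, Nr4a1 at 9 and Nr4a3 at 25, and ranked by fold change Nr4a3 stood at 10, Nr4a2 at 13 and Nr4a1 at 45. Against hM4Di, another receptor group with ligand, hM3Dq was also higher in all 3 genes. The log2 fold changes were 1.87 ± 0.15 for Nr4a1, 2.71 ± 0.17 for Nr4a2 and 2.87 ± 0.36 for Nr4a3. Their edgeR adjusted p-values were 0.000124, 1.74e-05 and 0.00388, and 0.751% of all genes were called higher there. In both comparisons the groups of all 3 members did not overlap, as with 6.06% of the genes tested against EGFP and 8.56% against hM4Di. The 2 comparisons share the hM3Dq libraries. Summed endothelial markers were also higher in hM3Dq at 90 min, at 18.4 to 22.6 CPM against 4.48 to 10.9 CPM in the other 9 libraries, nearly all of it Flt1; Cldn5 was at 0 in 5 of the 12 libraries and did not exceed 0.345 CPM. Whether this marker difference bears on the Nr4a levels was not tested.

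With the Gs-coupled receptor rM3Ds 1 of the 3 members, Nr4a2, was called. It measured 25.9, 29.0 and 31.0 CPM in the rM3Ds libraries, and the highest EGFP library was at 9.64 CPM. It rose by 1.84 ± 0.17 on the log2 scale (1.46 to 2.21), or 3.58-fold, with an edgeR adjusted p of 0.00203. It was 1 of 2 genes called in this comparison, 0.0147% of all tested. Nr4a3 measured 91.3, 73.0 and 72.8 CPM with rM3Ds. All 3 values lay above every EGFP library, but the log2 fold change of 1.29 ± 0.35 (0.52 to 2.05) had an edgeR adjusted p of 0.614. Without EGFP library 1 it was 0.92 with an adjusted p of 0.184. Nr4a1 measured 151, 171 and 153 CPM with rM3Ds, the smallest separation of the 3, since the nearest EGFP library was at 142 CPM. Its log2 fold change was 0.42 ± 0.15 (0.10 to 0.74) with an edgeR adjusted p of 1.00. All 3 members had groups that did not overlap, as 4.41% of all genes tested did in the same direction, and all 3 had an unadjusted p below 0.05, as 575 genes did.

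The call on Nr4a2 after rM3Ds depended on the fit. It stood in each fit with 1 library left out, at adjusted p-values of 0.00115 to 0.0239. With the 3 libraries that stood apart left out, which leaves 1 rM3Ds library whose spread is taken from the other groups, the log2 fold change was 1.50 and the adjusted p 0.084. Fitted on the rM3Ds and EGFP libraries alone it was 1.84 with an adjusted p of 0.339.

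**Figure D3:**
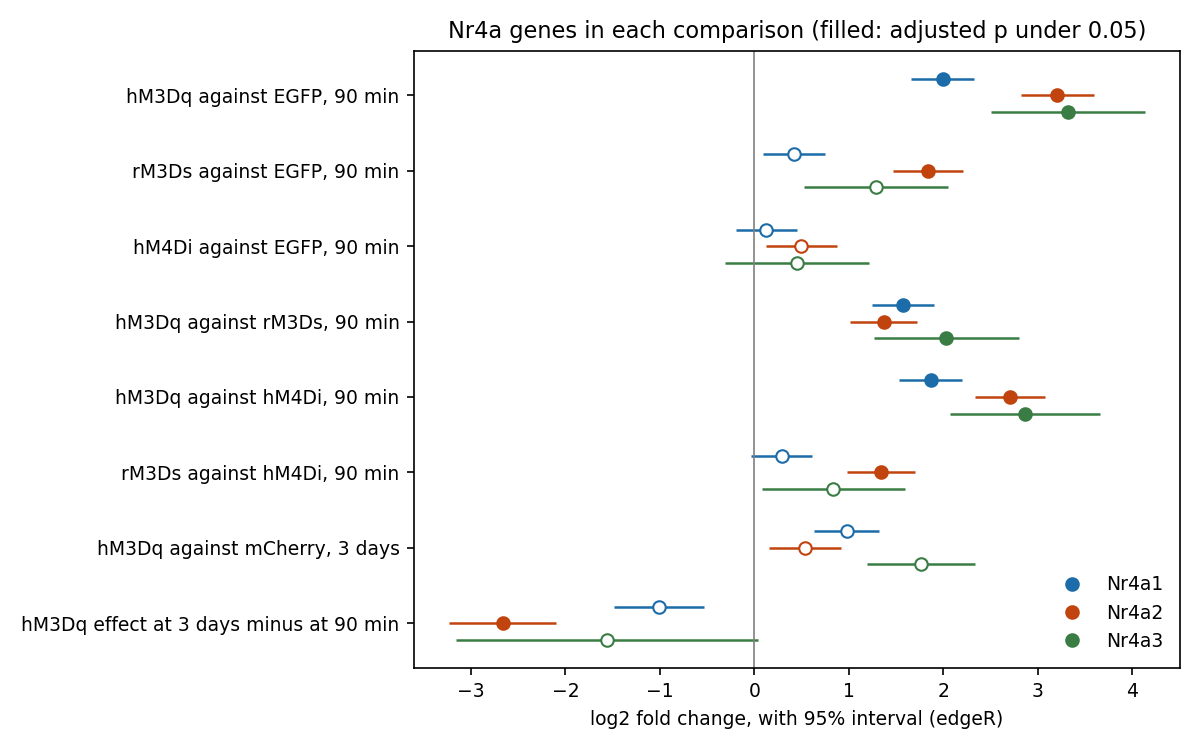
Log2 fold change of each Nr4a gene in every comparison, from edgeR, with bars for the 95% interval; filled points have an adjusted p below 0.05. The 3 points of hM3Dq against EGFP lie at 2.00, 3.21 and 3.32, while those of rM3Ds against EGFP spread from 0.42 for Nr4a1 to 1.84 for Nr4a2.

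Compared directly, hM3Dq gave higher levels than rM3Ds in all 3 genes. Nr4a1 was 2.98-fold higher with hM3Dq (log2 1.58 ± 0.15, edgeR adjusted p = 0.000784). Nr4a2 was 2.58-fold higher (1.37 ± 0.16, edgeR adjusted p = 0.00309). Nr4a3 was 4.09-fold higher (2.03 ± 0.35, edgeR adjusted p = 0.0298), where 0.567% of all genes were called higher with hM3Dq and 8.11% had groups that did not overlap in that direction, as all 3 members did. The Nr4a3 call was lost, at adjusted p-values of 0.102 to 0.193, in 5 of the 6 fits that left out 1 library of these groups and kept only without rM3Ds library 1. With a term for the libraries that stood apart its log2 fold change was 1.37 and its adjusted p 0.0665.

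Ratios between the members within a library do not depend on its total, and they describe the make-up of the family. The log2 ratio of Nr4a2 to Nr4a1 was -4.63, -3.54 and -3.49 in EGFP and -3.81, -3.31 and -3.39 in hM4Di. It was -2.54, -2.56 and -2.30 in rM3Ds and -2.54, -2.92 and -2.58 in hM3Dq. The values of hM3Dq and rM3Ds thus lay above those of hM4Di and EGFP with no overlap. Against EGFP the ratio was 2.31-fold higher with hM3Dq and 2.67-fold higher with rM3Ds, each with p = 0.1 in an exact two-sided permutation test, the smallest that 3 against 3 libraries allow (adjusted p = 0.191 over 21 ratio comparisons). Without EGFP library 1 the log2 differences fell from 1.21 to 0.84 and from 1.42 to 1.05. Between hM3Dq and rM3Ds this ratio overlapped (log2 difference -0.21, exact permutation p = 0.2).

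The ratio of Nr4a3 to Nr4a2 was higher in each hM3Dq library than in each rM3Ds library. It was 2.10, 2.15 and 2.14 on the log2 scale in hM3Dq and 1.82, 1.33 and 1.23 in rM3Ds, a 1.59-fold difference with no overlap (exact permutation p = 0.1, adjusted p = 0.191). The lowest 3 of the 12 values at 90 min were those of the libraries that stood apart, with EGFP library 1 at 1.14 and rM3Ds libraries 2 and 3 at 1.33 and 1.23, and the other 9 lay between 1.78 and 2.31. rM3Ds library 1, which did not stand apart, was at 1.82 and also lay below each hM3Dq library.

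**Figure D4:**
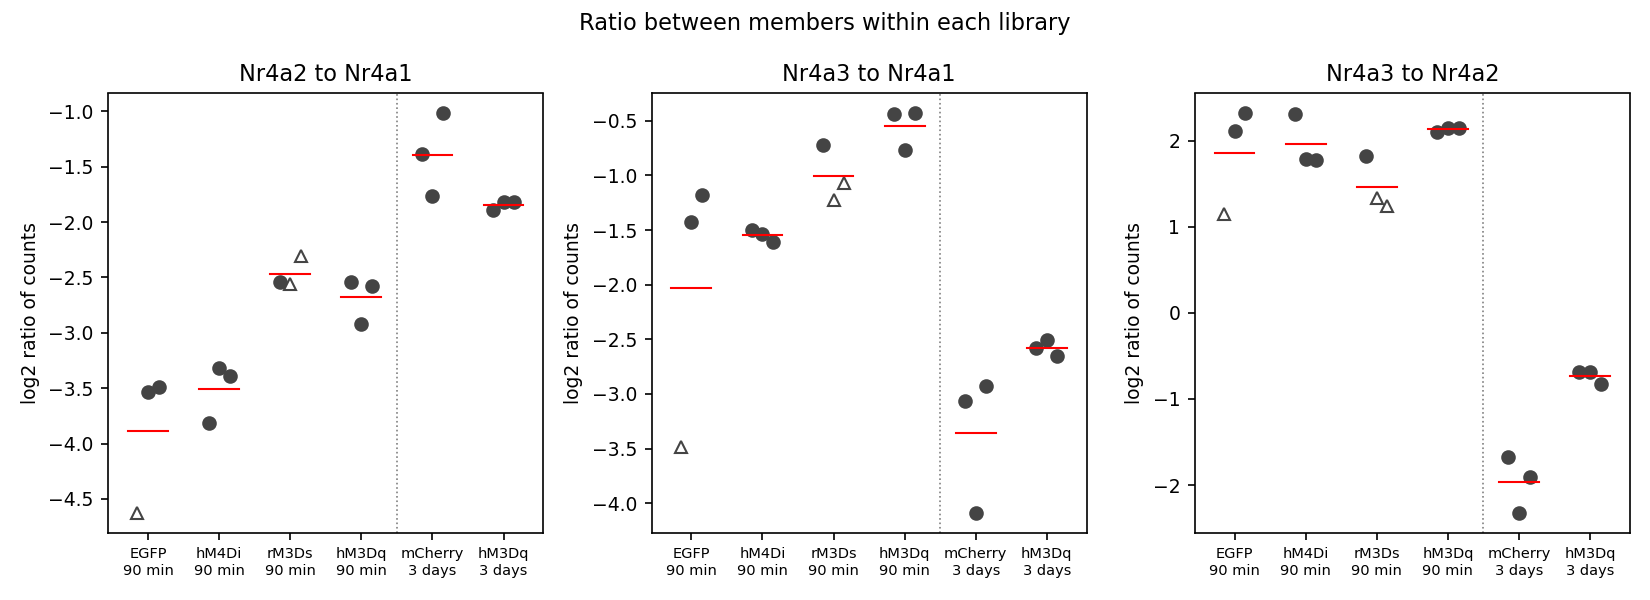
Log2 ratio of counts between pairs of Nr4a genes within each library, by group; points are libraries, bars are group means, and open triangles mark the 3 libraries that stood apart at 90 min. The ratio of Nr4a2 to Nr4a1 lies between -2.92 and -2.30 with hM3Dq and rM3Ds at 90 min and between -4.63 and -3.31 with hM4Di and EGFP.

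The Gi-coupled receptor hM4Di gave no called member, and 0 of all genes tested were called there by edgeR, against 19 by DESeq2 and 745 at an unadjusted p below 0.05. Nr4a1 measured 147, 113 and 129 CPM with hM4Di, within or just above the EGFP range (log2 fold change 0.13, 95% interval -0.20 to 0.45, edgeR adjusted p = 0.868). Its sign changed without EGFP library 3, to -0.0036. Nr4a2 measured 10.4, 11.3 and 12.3 CPM, above the EGFP libraries with no overlap, as 4.37% of genes tested were. Its log2 fold change was 0.50 ± 0.17 (0.13 to 0.87, unadjusted p = 0.0132, edgeR adjusted p = 0.833). Nr4a3 measured 51.8, 39.0 and 42.3 CPM and overlapped with EGFP (0.45, -0.31 to 1.21, edgeR adjusted p = 0.846). Without EGFP library 1 the Nr4a3 value was 0.08. No member had a lower mean with hM4Di than with EGFP, and the lowest bound of the 3 intervals was -0.31 on the log2 scale.

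Set against hM4Di, rM3Ds was higher in Nr4a2 (log2 1.34 ± 0.17, edgeR adjusted p = 0.0356), 1 of 2 genes called, 0.0147% of all tested, and all 3 members were higher with no overlap, as 5.79% of genes were. The Nr4a2 call was lost in 10 of 15 alternative fits, at adjusted p-values of 0.0685 to 0.3. Nr4a1 was at 0.29 ± 0.15 with an edgeR adjusted p of 0.546, and Nr4a3 at 0.84 ± 0.34 with an edgeR adjusted p of 0.452.

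Per kilobase of transcript the members can be compared with each other. The coding transcripts of the reference annotation are 2477 to 2553 bases long for Nr4a1, 2400 to 3568 for Nr4a2 and 5720 for Nr4a3, and each mean level was divided by the shortest and by the longest. In EGFP at 90 min the level was 45.8 to 47.2 CPM per kilobase for Nr4a1, 5.65 for Nr4a3 and 2.24 to 3.32 for Nr4a2. In hM3Dq it was 178 to 184 for Nr4a1, 54.6 for Nr4a3 and 20.0 to 29.8 for Nr4a2. Nr4a1 was thus the most abundant member per length in every group, and Nr4a3 came next in all 4 groups at 90 min. At 3 days the order of the other two was exchanged, with Nr4a2 at 1.10 to 1.63 and Nr4a3 at 0.410 CPM per kilobase in hM3Dq and 0.771 to 1.15 and 0.122 in mCherry.

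At 3 days after the ligand had been removed, the Nr4a genes were low in both groups, yet each hM3Dq library still lay above each control. Nr4a1 measured 6.99, 8.68 and 6.23 CPM in mCherry and 13.5, 14.7 and 14.2 CPM in hM3Dq. The difference was 0.98 ± 0.15 on the log2 scale (0.63 to 1.32), or 1.97-fold, with an unadjusted p of 0.000192. Nr4a2 measured 2.66, 2.53 and 3.06 CPM in mCherry and 3.61, 4.13 and 4.01 CPM in hM3Dq. The log2 fold change of Nr4a2 was 0.54 ± 0.16 (0.16 to 0.91), or 1.45-fold, with an unadjusted p of 0.0114. Nr4a3 was the scarcest, at 0.813, 0.482 and 0.793 CPM in mCherry (8 to 15 counts a library) and 2.23, 2.56 and 2.25 CPM in hM3Dq (42 to 44 counts). Its log2 fold change was 1.76 ± 0.25 (1.19 to 2.33), or 3.39-fold, with an unadjusted p of 0.000107.

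None of the 3 members was called at 3 days by edgeR, with adjusted p-values of 0.199 for Nr4a1, 0.294 for Nr4a2 and 0.199 for Nr4a3, and 0 of the 12807 genes tested were called. At an unadjusted p below 0.05 there were 1540 genes. Ranked by p Nr4a3 stood at 5, Nr4a1 at 12 and Nr4a2 at 498, and 9.32% of the genes tested were higher in hM3Dq with no overlap. DESeq2 called 140 genes, Nr4a1 (adjusted p = 0.000139) and Nr4a3 (adjusted p = 0.00309) among them. Without mCherry library 3, which stood apart, edgeR called 1257 genes and gave adjusted p-values of 0.000847 for Nr4a1, 0.00275 for Nr4a3 and 0.0579 for Nr4a2, with log2 fold changes of 0.88, 1.86 and 0.62.

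The hM3Dq effect at 3 days minus that at 90 min, each against its own control, shows how far the effect changed between the times. For Nr4a2 it was -2.66 ± 0.26 on the log2 scale (-3.23 to -2.10, edgeR adjusted p = 0.000318), the only member among the 0.381% of genes called lower. For Nr4a1 it was -1.01 ± 0.22 (-1.49 to -0.53, edgeR adjusted p = 0.0966), and without EGFP library 1 it was -1.19 with an adjusted p of 0.00400. For Nr4a3 it was -1.56 ± 0.73 (-3.15 to 0.04, edgeR adjusted p = 0.526), an interval that includes 0. The 3-day difference was the smallest of the family in Nr4a2 and the largest in Nr4a3. The log2 ratio of Nr4a3 to Nr4a2 was -0.68, -0.68 and -0.83 in hM3Dq and -1.68, -2.32 and -1.91 in mCherry, a 2.36-fold difference with no overlap (exact permutation p = 0.1, adjusted p = 0.191). That of Nr4a2 to Nr4a1 was lower in hM3Dq by 0.45 on the log2 scale, with the same p-values.

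The other nuclear receptors give a measure of how the Nr4a genes compare within their class. Of 46 such genes in the tables, 30 passed the filter on low counts at 90 min and 28 at 3 days. With hM3Dq against EGFP 1 of the 30 was called, Rorb, the retinoic acid receptor-related orphan receptor beta, which went from 16.2 ± 5.82 to 51.4 ± 9.72 CPM (mean ± SD, n = 3). Its log2 fold change was 1.71 ± 0.24 (edgeR adjusted p = 0.0074), below each Nr4a gene. Fitted on these 2 groups alone, 0 of the other nuclear receptors were called, so Rorb lost its call. The other 29 lay down to -0.56 for Pparg, a fatty acid sensing receptor, and the median of the 30 was -0.02 against 0.00 over all genes. Rorb was also called against hM4Di (1.83, edgeR adjusted p = 0.00529) and measured 1.14 against rM3Ds (edgeR adjusted p = 0.0639). At 3 days Rorb was at 4.11 CPM in hM3Dq and 3.8 CPM in mCherry.

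Of all genes tested, edgeR called 2 with rM3Ds against EGFP, 0 with hM4Di against EGFP and 0 at 3 days. No other nuclear receptor was called there. The smallest p with rM3Ds was that of Nr2f1, an orphan receptor of cortical patterning, at a log2 fold change of 1.03 ± 0.27 (edgeR adjusted p = 0.604), from 48.4 ± 3.41 to 99.8 ± 42.8 CPM (SD, n = 3). With hM4Di it was that of Rora, at -0.47 (edgeR adjusted p = 0.833). At 3 days it was that of Vdr, the vitamin D receptor, at 39.9 CPM in mCherry and 61.1 CPM in hM3Dq (0.64 ± 0.11, edgeR adjusted p = 0.2). Unadjusted p-values below 0.05 were held by 3, 2, 2 and 5 of the other receptors in hM3Dq, rM3Ds and hM4Di against EGFP and at 3 days.

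**Figure D5:**
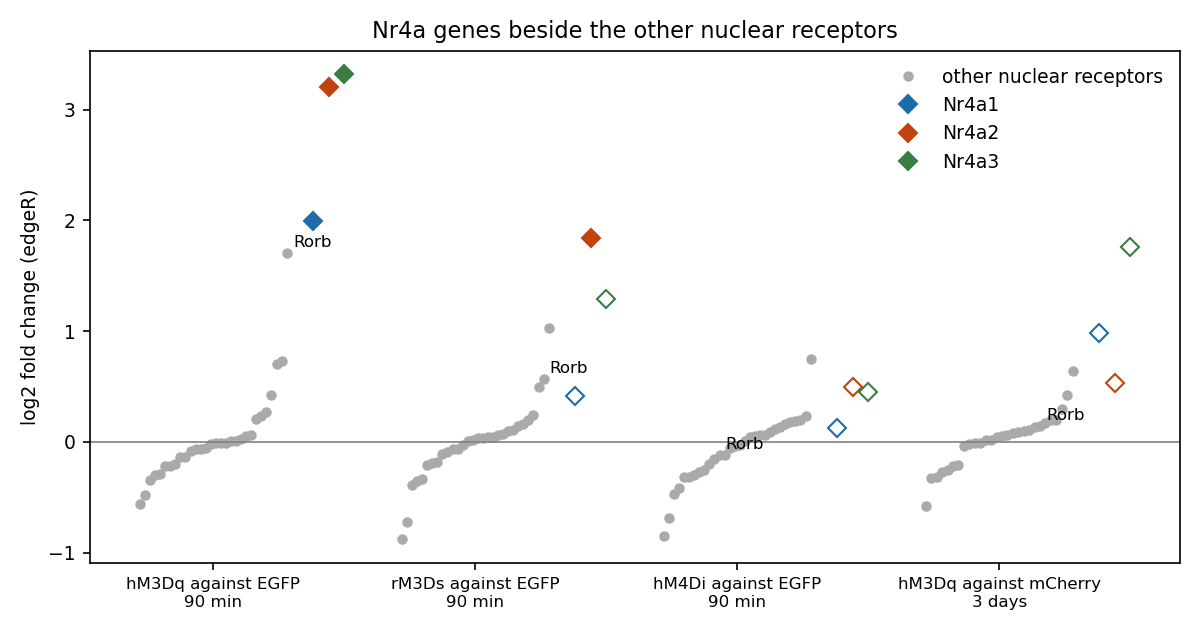
Log2 fold change of the tested other nuclear receptors (grey points) and of the 3 Nr4a genes (diamonds, filled where the adjusted p is below 0.05) in the 4 comparisons against a control, from edgeR. With hM3Dq at 90 min the Nr4a genes lie at 2.00 to 3.32 and the other receptors between -0.56 and 1.71.

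Factors known to drive Nr4a transcription were 26 genes, 25 of them tested at 90 min. With hM3Dq against EGFP 1 was called, Nfatc2, a calcium-responsive factor that calcineurin sends to the nucleus, from 1.01 ± 0.276 to 6.13 ± 0.602 CPM (SD, n = 3; log2 fold change 2.61 ± 0.35, edgeR adjusted p = 0.00430). It was also called against rM3Ds (3.57, edgeR adjusted p = 0.00127) and hM4Di (2.47, edgeR adjusted p = 0.0063). No gene of the list was called against rM3Ds without the 3 libraries that stood apart, or against hM4Di without hM4Di library 3. The list's median against EGFP was 0.08, against 0.00 over all genes. With rM3Ds none was called, and the smallest p was that of Crem, whose gene also makes a cyclic AMP-inducible repressor, at 16.4 ± 1.30 CPM in EGFP and 25.0 ± 1.31 CPM in rM3Ds (0.59 ± 0.09, edgeR adjusted p = 0.195). None was called with hM4Di, where Mef2a was at -0.33 (edgeR adjusted p = 0.833), or at 3 days, where Crtc2, a CREB coactivator, was at -0.26 (edgeR adjusted p = 0.378). Of all genes tested, edgeR called 2 with rM3Ds, 0 with hM4Di and 0 at 3 days.

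Partners and co-regulators of the NR4A proteins were 18 genes, 17 of them tested at 90 min. Across the comparisons edgeR called 0 to 109 of all genes tested, and 0 of this list in any. With hM3Dq the smallest p was that of Sfpq, an RNA-binding and co-repressor protein, at 171 ± 9.25 CPM in EGFP and 201 ± 10.6 CPM in hM3Dq (log2 fold change 0.27 ± 0.09, edgeR adjusted p = 0.355). Against hM4Di Sfpq was at 0.43 with an edgeR adjusted p of 0.0507, and DESeq2 called 1 of the list there. The retinoid partner Rxra had the smallest p at 3 days, at 0.20 ± 0.10 (edgeR adjusted p = 0.437), with groups that overlapped.

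Genes reported as NR4A targets in other tissues were 37, of which 15 were tested at 90 min. With hM3Dq against EGFP 1 was called, Fosl2, a Fos-family member of AP-1, which went from 108 ± 10.3 to 292 ± 35.3 CPM (SD, n = 3; 1.47 ± 0.18, edgeR adjusted p = 0.00302). The list's median was -0.05 against 0.00 over all genes. Fosl2 was at 0.89 with rM3Ds (edgeR adjusted p = 0.320), and its hM3Dq effect was lower at 3 days by -1.13 ± 0.15 (edgeR adjusted p = 0.00457). At 3 days none of the 12 tested was called by edgeR, which called 0 of all genes there. Of the 12, the smallest p was that of Spp1, osteopontin, at 856 ± 46.9 CPM in mCherry and 1161 ± 90.7 CPM in hM3Dq (0.47 ± 0.10, edgeR adjusted p = 0.228).

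The genes with the profile most like each member were found by Pearson correlation of log2 CPM over the 12 libraries at 90 min, among 11861 genes. These values are descriptions: the libraries share their groups, and the 3 hM3Dq libraries set much of each correlation. For Nr4a1 they were Fosl1 at 0.99, Atf3 at 0.98, and Csrnp1, Junb and Srxn1 at 0.97. For Nr4a2 they were Nr4a3 at 0.96, Socs6 and Ptgs2 at 0.95, and Inhba and Dusp10 at 0.94. For Nr4a3 they were Ptx3 at 0.98 and Fos, Inhba, Nr4a2 and Rorb at 0.96. By rank correlation, 4 of the 5 of Nr4a1, 2 of the 5 of Nr4a3 and none of those of Nr4a2 stayed among the nearest 10. Without the hM3Dq libraries the correlation between members over 9 libraries was 0.86 for Nr4a2 with Nr4a3, 0.59 for Nr4a1 with Nr4a2 and 0.28 for Nr4a1 with Nr4a3.

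Several of these companions are immediate-early or early-response genes, and their rM3Ds values can be set beside those of Nr4a2. The companions were picked by correlation over these same libraries. Their higher levels with hM3Dq follow from that choice, and the p-values given for it are no separate test. Ptgs2, the inducible prostaglandin synthase, went from 8.65 CPM in EGFP to 131 CPM with hM3Dq (log2 3.96 ± 0.27, edgeR adjusted p = 4.31e-05) and 23.1 CPM with rM3Ds (1.40 ± 0.25, edgeR adjusted p = 0.2). Fos, a subunit of AP-1, was at 13.4 CPM in EGFP, 52.7 CPM with hM3Dq (2.01 ± 0.16, edgeR adjusted p = 6.18e-05) and 19.7 CPM with rM3Ds (0.55 ± 0.15, edgeR adjusted p = 0.620). Fosl1 and Atf3, the nearest to Nr4a1, were at 3.39 ± 0.16 and 2.82 ± 0.15 with hM3Dq and at 0.53 ± 0.16 and 0.67 ± 0.14 with rM3Ds. At 3 days, where edgeR called 0 of all genes tested, none of the 12 companions outside the family was called. Their log2 fold changes had mixed signs. Fosl1 was at 0.59 ± 0.29, Ptx3 at 0.52 ± 0.11, Csrnp1 at 0.51 ± 0.15 and Inhba at 0.29 ± 0.10, the sign of the 3 Nr4a genes. Atf3 at 0.23 ± 0.39, Rorb at 0.15 ± 0.20 and Junb at 0.13 ± 0.30 had that sign too, but each was smaller than its SE. Srxn1 was at -0.04 ± 0.09, Socs6 at -0.07 ± 0.14 and Ptgs2 at -0.08 ± 0.22, each smaller than its SE. Dusp10 was at -0.18 ± 0.15 and Fos at -0.47 ± 0.12 (edgeR adjusted p = 0.262).

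Most other genes with as many CRE half-sites as the members were not called. Of 37 tested genes with 4 or more half-sites in the 250-base window, 3 were the members, and of the other 34 genes 1, or 2.94%, was called with hM3Dq against EGFP, with a median log2 fold change of 0.04. That gene was Ell2, an elongation factor of RNA polymerase II (1.34 ± 0.11, edgeR adjusted p = 0.000108). Among genes with no half-site 0.608% of 7569 were called, with 1 half-site 0.896% of 2344, with 2 1.92% of 677 and with 3 1.54% of 130. Over all 10754 other genes the share was 0.772%, and these shares count calls in either direction. With rM3Ds and with hM4Di against EGFP 0 of the 34 were called, as 0 of the 10754 were. The medians of the 34 were 0.03 and -0.03 there. The windows' median share of G and C rose with the number of half-sites too, from 59.6% with none to 64.0% with 4 or more, and its part in these shares was not tested.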

How the data were processed

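The 2 deposited tables, 1 for the 12 libraries at 90 min and 1 for the 6 libraries at 3 days, hold unscaled estimated counts for each gene. Salmon 1.8.0, fastp 0.23.4 and the build mm39 are named, without their roles, in the submitters' processing notes. How transcripts were summed to genes, and whether strand was used, is not given in the sources used here, so reads shared with overlapping or antisense genes cannot be told apart. Symbols came from a reference gene table, which matched 21978 of 22078 Entrez identifiers. The rest held 0.0325% and 0.0383% of counts and stayed out of the named results. Of the values 55.9% and 30.5% were not whole, and they were rounded before testing. Coordinates and promoter windows are RefSeq's in GRCm38.p6, another build than that of the counts, and transcript lengths are those of GENCODE vM21.

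Tests were edgeR's quasi-likelihood test (edgeR 4.0.16, limma 3.58.1, R 4.3.3) with TMM scaling, robust dispersion and the filterByExpr filter. Genes with a p below 0.05 after Benjamini-Hochberg adjustment over the whole table were called. Separate fits held the 4 groups at 90 min (13584 genes, 8 residual degrees of freedom) and the 3-day groups alone (12807 genes, 4). Another, for the difference between times, held the 12 libraries of hM3Dq and its controls (13391 genes, 8). TMM factors were 0.971 to 1.04. Levels are CPM of the library total, and fold changes carry the TMM scaling. Intervals are 95%. Ratios between members used counts plus 0.5 and exact two-sided permutation tests over 3 against 3 libraries. Floors of 3 counts cover counting error only.

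The members and the 4 gene lists were chosen with earlier results of these data known, and the lists are described by counts and medians with no test of their own. The genes named were the members, the 5 genes most correlated with each (mean log2 CPM of at least 1), and from each list the called genes, or the 1 with the smallest p where none was called. Ell2, and which companions were described further, were chosen after their values were seen.

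Simulated counts with 200 changed genes were used to try the tests against a control and the test between times. At 2-fold and 4-fold changes they recovered 53% and 87% for hM3Dq against EGFP (13477 genes), 53% and 85% for rM3Ds (13479), 57% and 92% for hM4Di (13478), 78% and 96% at 3 days (12734) and 43% and 83% for the difference between times (13249). In the same order, 5 of 145, 4 of 142, 11 of 160, 11 of 185 and 11 of 137 calls were false. Each gene was drawn on its own and no simulated library stood apart, so these shares need not hold for the real libraries. Alternatives were DESeq2 1.42.0, other scaling and filters, the replicate number as a block, fits on 2 groups, each library left out and, added after the data had been seen, the libraries that stood apart left out or given a term of their own.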

Additional observations from a re-analysis of the deposited data

Results flagged for a closer look

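The effect of hM3Dq on Nr4a2 differed between the times. Against its own control the log2 fold change was 3.21 at 90 min and 0.54 at 3 days, a difference of -2.66 ± 0.26 (SE) with an edgeR adjusted p of 0.000318 in the interaction test, and all 3 hM3Dq libraries lay above all 3 controls at both times. The controls differ between the times in their fluorescent protein, which cannot be told apart from time.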

How the results depend on the processing

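The numbers of the replicates do not pair the libraries by the rule used, since the correlations of same-numbered libraries ranged from -0.744 to 0.376 over the comparisons; in hM3Dq against EGFP they were 0.105, 0.129 and 0.098, each library nearest to its own number. With the replicate block the Nr4a3 value in hM3Dq against rM3Ds was 2.03 (adjusted p = 0.105) and that of Nr4a2 in rM3Ds against hM4Di 1.34 (0.0976), and no other member's call changed; all-gene calls in hM3Dq against EGFP went from 107 to 66. With only 2 groups and the block, Nr4a3 in hM3Dq against EGFP was 3.46 (0.143), Nr4a2 in rM3Ds against EGFP 1.87 (1.00) and in rM3Ds against hM4Di 1.33 (0.244). In that fit of hM3Dq against EGFP none of the regulators or other nuclear receptors, Nfatc2 and Rorb included, was called. With only 2 groups these Nr4a2 values were 1.84 (0.339) and 1.33 (0.105). Without the 3 libraries that stood apart they were 1.50 (0.084) and 1.205 (0.228). With a term for those libraries, Nr4a2 in rM3Ds against hM4Di was 1.45 (0.0685) and Nr4a3 in hM3Dq against rM3Ds 1.37 (0.0665). By DESeq2, Nr4a3 in rM3Ds against EGFP was 1.29 (0.0253), Nr4a1 and Nr4a3 at 3 days 0.98 (0.000139) and 1.77 (0.00309), and the Nr4a1 difference between times -1.01 (0.00399).

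With single libraries left out, the ranges were 1.27 to 1.40 for Nr4a2 in rM3Ds against hM4Di, 1.92 to 2.14 for Nr4a3 in hM3Dq against rM3Ds, -0.0036 to 0.32 for Nr4a1 in hM4Di against EGFP, 0.88 to 1.12 for Nr4a1 and 1.57 to 1.89 for Nr4a3 at 3 days, and -1.19 to -0.88 for the Nr4a1 difference between times. The Nr4a3 to Nr4a2 ratio ranged from -0.0807 to 0.51 in hM3Dq against EGFP and from -0.26 to 0.33 in hM4Di against EGFP (-0.08 without hM4Di library 1), and the Nr4a3 to Nr4a1 ratio in hM4Di against EGFP from -0.24 to 0.91; the negative values of the first and last, and the lowest of the second, came without EGFP library 1. The cause of these changes was not tested. The calls of Nr4a1 and Nr4a2 in hM3Dq against EGFP, rM3Ds and hM4Di held in all 15 alternatives each. Counts of called genes moved more: 28 to 226 for hM3Dq against EGFP, 0 to 115 for rM3Ds, 0 to 19 for hM4Di, 25 to 590 for hM3Dq against rM3Ds, 38 to 391 for hM3Dq against hM4Di, 0 to 392 for rM3Ds against hM4Di, 0 to 1257 at 3 days and 28 to 195 for the difference between times. Depth limits Nr4a3 at 3 days, where mCherry libraries hold 8 to 15 counts.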
